A study of Zea mays with 10 samples.

Results

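Abscisic acid (ABA) genes were followed through bulk RNA-seq of wild-type B73 maize endosperm, the tissue that feeds the embryo in the kernel. The genes were those that the study lists under ABA biosynthesis, taken largely from the CornCyc pathway database, and under ABA response, found by identifier in the count tables. Of 40 listed identifiers, 38 were analysed among 45953 genes, 27 in biosynthesis and 11 in response, and the other 2 were not analysed here. The study named 6 of them (TS2, AASR1, AASR5, AASR7, AASR9 and RAB15), and the rest are given by identifier with no role, since no source used here annotates the step or protein.

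The 10 libraries came from greenhouse-grown kernels collected 6 or 7 days after pollination (DAP). There were 3 libraries of whole endosperm at each stage, and a separate set with 1 library of undigested endosperm and 1 of protoplasts at each stage. Per the labels, which give the same text for all samples, RNA came from pools of 20 endosperms. The study's methods describe a larger harvest of kernels for the isolation of protoplasts. Protoplasts are cells freed from their walls, here by cellulase, macerozyme and pectolyase in a mannitol solution, and the undigested libraries are their controls.

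ABA is made from carotenoids. An epoxycarotenoid is cleaved to xanthoxin, which a short-chain dehydrogenase and an aldehyde oxidase convert to the hormone. ABA is bound by PYR/PYL receptors, which then inhibit type 2C protein phosphatases and so free SnRK2 kinases to activate bZIP transcription factors. In the maize kernel the hormone is known for promoting maturation and for preventing germination on the ear, and in vegetative tissue for responses to drought and osmotic stress. Its targets include dehydrins and other late embryogenesis abundant (LEA) proteins, hydrophilic proteins that accompany desiccation, and the ABA stress ripening (ASR) proteins, small hydrophilic proteins of stress and ripening.

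The replicated libraries held 15911047 to 24311056 counts on genes, and the other 4 held 22234742 to 30203337. A count of 3 equals 0.0993 to 0.189 CPM (counts scaled to the same library total) at these depths. Levels are given as CPM scaled by TMM, edgeR's correction for library composition, calculated in each set separately, and depend on gene length, so that levels of different genes are not compared. Every marker gene checked for aleurone, transfer layer, starchy endosperm, embryo surrounding region and embryo had counts in all 10 libraries. The lowest was 3 counts, for an embryo marker, and the cells from which the marker RNA came were not tested. In bulk samples, fewer cells of a type and less RNA per cell cannot be told apart.

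Much of the list was at or near the limit of detection. No count was found for 8 of the 38 genes in any library (7 biosynthesis genes and the response gene Zm00001d013169), and 5 more never exceeded 3 counts, the response gene Zm00001d040785 among them. Zero counts in a library allow a level of up to the 3-count value above, for counting error alone. The filter on low counts left 17 genes for the comparison of stages (11 biosynthesis and 6 response) and 19 for the comparison of protoplasts with undigested endosperm (12 and 7). Zm00001d016760 and Zm00001d040011 passed the second filter only, and their counts were highest in protoplasts. Of the 19 genes in no test, 6 exceeded 3 counts somewhere, with at most 27 counts.

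The first comparison asked which ABA genes differed between 6 and 7 DAP, when endosperm cell types are differentiating. With a limit of 2 on the log2 fold change and an adjusted p under 0.05, 1 of 17 tested members was called higher at 7 DAP and 0 lower, where 2.54% and 0.451% of all 21486 tested genes were called. Without the fold limit, 5 members were higher and 2 lower, 29.4% and 11.8% of those tested, against 28.2% and 28.0% of all genes. The 3 replicates of each stage did not overlap in 6 of the 17, against 61.8% of all genes. The median log2 fold change was 0.12 for biosynthesis members, 0.10 for response members and 0.02 for all genes, and 10 members did not pass the test. Each count of 0 given here for a list was also 0 at an unadjusted p under 0.05 and with DESeq2.

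Among the response genes, the only member called was Zm00001d027740. It stood at 0.597, 0.639 and 0.534 CPM at 6 DAP and at 2.59, 2.57 and 2.23 CPM at 7 DAP, from between 9 and 54 counts a library. Every 7 DAP library was above every 6 DAP library. Its log2 fold change was 2.05 ± 0.28 (SE; adjusted p = 2.69e-06 by the quasi-likelihood test of edgeR, adjusted by Benjamini-Hochberg as all those below). Without 6 DAP replicate 3 the value was 1.99, just under the limit for a call.

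Of the 4 ASR genes, 2 were lower at 7 DAP, as were 28.0% of all tested genes, and 2 did not pass the test. AASR1 had 23.8, 24.4 and 22.3 CPM at 6 DAP and 17.9, 16.2 and 15.1 CPM at 7 DAP, with no overlap. It fell by 0.52 on the log2 scale (SE 0.08, adjusted p = 9.70e-06). AASR5 had 19.4, 16.6 and 20.2 CPM at 6 DAP and 15.7, 15.8 and 16.7 CPM at 7 DAP, so that its stages overlapped. Its log2 fold change was -0.23 ± 0.08 (adjusted p = 0.0284). AASR5 no longer passed the test with scaling by library totals (adjusted p = 0.271) or with DESeq2 (0.0738). Nor did it pass without 6 DAP replicate 1 (0.0883), 6 DAP replicate 3 (0.101), 7 DAP replicate 1 (0.0781) or 7 DAP replicate 2 (0.0927).

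AASR7 and AASR9, whose identifiers are consecutive (Zm00001d040786 and Zm00001d040787), had low levels in whole endosperm. AASR7 lay between 0.959 and 1.49 CPM at 6 DAP and between 1.14 and 1.93 CPM at 7 DAP, and AASR9 between 0.772 and 1.02 and between 0.603 and 1.33 CPM. The stages overlapped for both genes, and neither passed the test (log2 fold change 0.36 ± 0.30, adjusted p = 0.319, and 0.07 ± 0.34, adjusted p = 0.88). Reads that map to several genes were not counted, so the split between family members of similar sequence is uncertain.

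RAB15, named for its responsiveness to ABA, varied little between replicates. Its levels were 1031, 1015 and 1001 CPM at 6 DAP (mean 1016 ± 14.8, SD, n = 3) and 1091, 1116 and 1135 CPM at 7 DAP (mean 1114 ± 22.3). The replicates did not overlap, and the difference was small, a log2 fold change of 0.13 ± 0.02 (adjusted p = 5.74e-06). The remaining response genes were too low to test. Zm00001d016760 had 1, 0 and 0 counts at 6 DAP and 3 counts in each 7 DAP library. Zm00001d003712 had 0, 2 and 2 counts and then 5, 10 and 7, and Zm00001d004843 had 0 counts in all 6 DAP libraries and 1, 1 and 10 at 7 DAP.

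**Figure D1:**
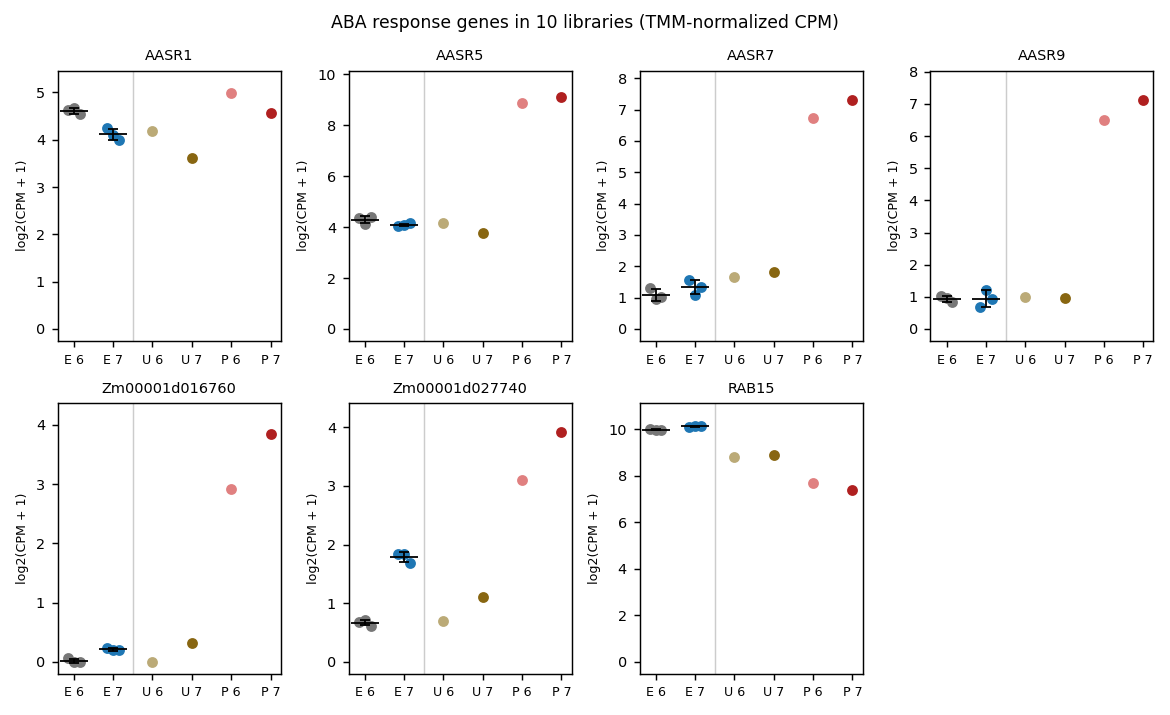
Levels of the 7 ABA response genes that passed a filter, as log2(TMM-normalized CPM + 1), in whole endosperm at 6 and 7 DAP (E 6, E 7; 3 libraries each, bars give mean ± SD) and in single libraries of undigested endosperm (U 6, U 7) and protoplasts (P 6, P 7). The protoplast libraries lie far above the rest for AASR5, AASR7, AASR9, Zm00001d016760 and Zm00001d027740, and below their undigested controls for RAB15.

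Of the 11 tested biosynthesis genes, 3 were higher at 7 DAP (27.3%, near the 28.2% of all genes), 0 were lower and 8 did not pass the test. Zm00001d018819 rose from 0.98, 0.895 and 1.07 CPM to 2.11, 1.95 and 3.00 CPM, with no overlap. Its log2 fold change was 1.26 ± 0.27 (adjusted p = 0.000473). Zm00001d033222 rose from 7.59, 6.52 and 7.48 CPM to 12.9, 10.6 and 9.05 CPM, again without overlap, by 0.58 ± 0.13 (adjusted p = 0.000727).

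The third was Zm00001d034385, singled out after its values were seen. It stood at 8.06, 7.61 and 6.71 CPM and then at 10.4, 9.57 and 9.68 CPM, with no overlap and a log2 fold change of 0.40 ± 0.11 (adjusted p = 0.00524). TS2 (Tasselseed2), a short-chain dehydrogenase best known for its part in the sex determination of maize florets, had 12.7, 10.2 and 11.9 CPM at 6 DAP and 8.63, 11.2 and 9.68 CPM at 7 DAP. Its stages overlapped (log2 fold change -0.24 ± 0.11, adjusted p = 0.0847), although it passed the test without 6 DAP replicate 2 (adjusted p = 0.0336) or 7 DAP replicate 2 (0.0327). The other 7 tested biosynthesis genes had log2 fold changes between -0.34 and 0.81.

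Other markers moved between the stages too. The summed level of 4 embryo markers went from between 65.1 and 71.8 CPM at 6 DAP to between 543 and 570 CPM at 7 DAP, and that of 3 aleurone markers from between 5705 and 5917 to between 9181 and 9406 CPM. All 4 and all 3 were higher at an adjusted p under 0.05, as were 4 of 4 markers of the embryo surrounding region, 4 of 5 of starchy endosperm (1 was lower), 3 of 3 of endosperm adjacent to the scutellum and 2 of 2 heat shock genes. All 4 transfer layer markers were lower, their summed level going from between 791 and 870 CPM to between 276 and 281 CPM. Over all tested genes, 28.2% were higher and 28.0% lower. Their part in the changes of the ABA genes was not tested.

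The single libraries of undigested endosperm gave a further pair of stages, in a separate count table. All 7 members past the adjusted p in the replicated libraries had the same direction there, against 96.4% of all such genes. The step for Zm00001d027740 was smaller, from 0.628 to 1.16 CPM. AASR1 went from 17.1 to 11.2 CPM and Zm00001d018819 from 1.76 to 3.35 CPM. No member differed by over 1 on the scale of log2(CPM + 1), which 3.84% of all genes exceeded upward and 1.04% downward. These pairs have no replicates and no test.

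The second comparison asked how enzymatic digestion relates to ABA transcripts, since the study made its single-cell data from protoplasts. Here most of the tested response genes and some biosynthesis genes stood higher in protoplasts. Of 19 tested members, 10 were called higher and 2 lower, where a call required an adjusted p under 0.05 and a change past 1 on the log2 scale. These are 52.6% and 10.5%, against 18.4% and 7.37% of all 22799 tested genes. The 10 include Zm00001d016760 and Zm00001d040011, which passed the filter only through their protoplast counts. The filter thus favoured a difference in these genes, and their calls are no independent result. With at least 10 counts required in every library, 8 of 17 members were higher and 2 lower (47.1% and 11.8%), against 16.4% and 7.03% of 20103 genes. Without the fold limit, 11 were higher, Zm00001d016760 and Zm00001d040011 among them, and 2 lower, against 23.0% and 16.3% of all genes. The median log2 fold change was 5.11 for 7 tested response members, 0.56 for 12 tested biosynthesis members and -0.03 for all genes, and the response median was 2.93 with no filter on low counts and 4.40 with the stricter one. The fit has 2 libraries a treatment, takes 6 and 7 DAP as replicates of each other with stage as a covariate, and cannot separate digestion from any other difference between these preparations.

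AASR9 had the largest fitted fold change of the 4 ASR genes. Its level was 1.00 CPM in undigested endosperm and 89.0 CPM in protoplasts at 6 DAP, and 0.95 and 138 CPM at 7 DAP. The ratios were 88.6 at 6 DAP (95% counting interval 59.4 to 139) and 145 at 7 DAP (96.5 to 229), and the fitted log2 fold change was 6.82 ± 0.24 (adjusted p = 0.000374). AASR7, its neighbour by identifier, went from 2.13 to 105 CPM at 6 DAP and from 2.52 to 158 CPM at 7 DAP (log2 fold change 5.80 ± 0.19, adjusted p = 0.000374).

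AASR5 already had a measurable level in undigested endosperm, 17.1 CPM at 6 DAP and 12.6 CPM at 7 DAP. In protoplasts it reached 465 and 558 CPM, which are 27.2 and 44.1 times those levels, with a log2 fold change of 5.11 ± 0.24 (adjusted p = 0.000529). AASR1 behaved differently from the other 3 ASR genes. It went from 17.1 to 30.7 CPM at 6 DAP and from 11.2 to 22.8 CPM at 7 DAP, a log2 fold change of 0.93 ± 0.16 (adjusted p = 0.0119), under the limit for a call.

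Zm00001d016760 and Zm00001d027740, the response genes without a symbol that entered this test, were also higher. Zm00001d016760, which was next to undetected in whole endosperm, had 0 counts in undigested endosperm and 165 counts in protoplasts at 6 DAP. Set against 3 counts in the undigested library, the protoplast level was 52.2-fold higher. The 95% counting interval of the ratio of 165 to 0 counts starts at 42.0. At 7 DAP it had 6 and 379 counts, a ratio of 54.0 (24.6 to 148). No p is given, since the gene entered the test only through protoplasts and was left out by a minimum of 10 counts in every library. Zm00001d027740, the gene called between the stages, went from 0.628 to 7.55 CPM at 6 DAP and from 1.16 to 14.1 CPM at 7 DAP. These are ratios of 12.0 and 12.2, with a log2 fold change of 3.59 ± 0.29 (adjusted p = 0.00139).

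RAB15 went the other way. Undigested endosperm had 452 and 479 CPM at 6 and 7 DAP and protoplasts had 203 and 165 CPM, so that both protoplast libraries were below both controls. The log2 fold change was -1.35 ± 0.16 (adjusted p = 0.00394). Its level in undigested endosperm was also below the 1001 to 1135 CPM of the replicated set, a difference that was not tested, because the sets were tabulated and scaled apart. Of the untested response genes, Zm00001d003712 had 6 counts in each 6 DAP library and 3 and 12 counts at 7 DAP in undigested endosperm and protoplasts. Zm00001d004843 had 0 and 2 counts at 6 DAP and 5 and 1 at 7 DAP.

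Biosynthesis genes split. TS2 stood highest by fold, from 11.7 to 296 CPM at 6 DAP and from 9.63 to 294 CPM at 7 DAP, ratios of 25.3 and 30.5. Both protoplast libraries were far above both controls (log2 fold change 4.79 ± 0.16, adjusted p = 0.000374). Zm00001d018819 went from 1.76 to 9.41 CPM at 6 DAP and from 3.35 to 19.0 CPM at 7 DAP (log2 fold change 2.46 ± 0.23, adjusted p = 0.00211), and Zm00001d033222 from 7.07 to 24.1 and from 12.3 to 33.1 CPM (1.59 ± 0.18, adjusted p = 0.00362). These 2 genes were also higher at 7 than at 6 DAP in whole endosperm.

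Another pair of biosynthesis genes was called at low levels. Zm00001d040011 had 6 and 13 counts in undigested endosperm and 35 and 75 counts in protoplasts at 6 and 7 DAP, ratios of 5.54 (95% counting interval 2.30 to 16.1) and 4.93 (2.71 to 9.68). It too entered the test only through its protoplast counts, was left out by the minimum of 10 counts in every library, and is given without a p. Zm00001d013689 went from 0.586 to 2.78 CPM and from 1.61 to 4.38 CPM (1.79 ± 0.41, adjusted p = 0.0259), and this call was lost without the stage covariate (adjusted p = 0.0722).

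Zm00001d031086 was the biosynthesis gene called lower. It had 10.4 and 9.79 CPM in undigested endosperm and 1.55 and 3.28 CPM in protoplasts, ratios of 0.149 and 0.335, with a log2 fold change of -2.13 ± 0.37 (adjusted p = 0.0122). In whole endosperm its stages overlapped, between 7.30 and 9.21 CPM at 6 DAP and between 7.18 and 7.45 CPM at 7 DAP. The remaining 6 tested biosynthesis genes did not pass the test, with log2 fold changes from -0.97 to 0.57. The latter was Zm00001d034385 (adjusted p = 0.0764), and Zm00001d008530 had opposite directions at 6 and 7 DAP. Among untested genes, Zm00001d007876 had 27 counts in 7 DAP protoplasts and at most 3 in any other library.

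**Figure D2:**
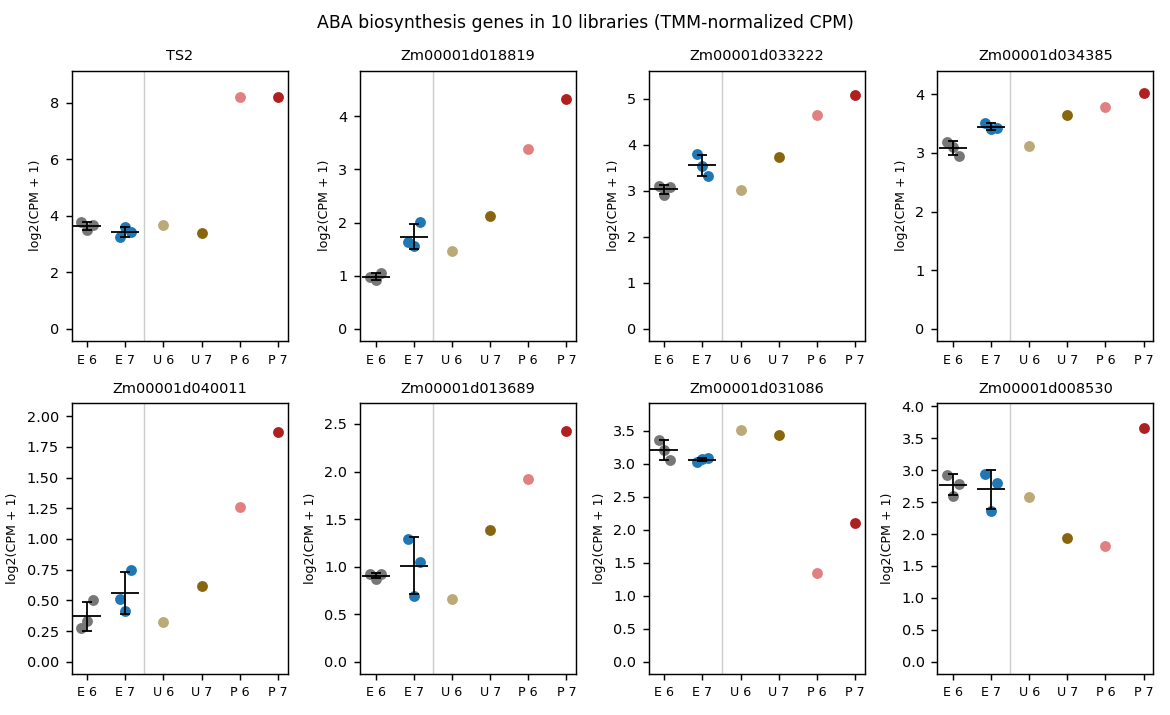
Levels of 8 ABA biosynthesis genes, as log2(TMM-normalized CPM + 1), in whole endosperm (E 6, E 7; 3 libraries each, bars give mean ± SD), undigested endosperm (U 6, U 7) and protoplasts (P 6, P 7), with 1 library each. TS2 has protoplast levels of 296 and 294 CPM against 8.63 to 12.7 CPM elsewhere. Zm00001d031086 is lower in protoplasts, and Zm00001d008530 is high in 7 DAP protoplasts alone. Of the 12 tested biosynthesis genes, those not shown passed neither comparison. Their log2 fold changes in protoplasts were -0.97, -0.50, -0.49 and 0.42, so most of them leaned lower.

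Counted by stage in single libraries, on the scale of log2(CPM + 1), 9 of the 19 tested members were over 1 higher in protoplasts and 3 over 1 lower at 6 DAP, against 14.6% and 8.48% of all genes. At 7 DAP the numbers were 10 and 2, against 15.1% and 11.7%. The higher members include Zm00001d016760 at both stages and Zm00001d040011 at 7 DAP, which passed the filter only through their protoplast counts. Between the 2 protoplast libraries, 1 member was over 1 higher at 7 DAP (Zm00001d008530) and 0 lower, where 2.48% and 0.289% of all genes were. Of the 7 members past the adjusted p between the replicated stages, 5 had the same direction in the protoplast pair, against 71.9% of all such genes, and AASR5 and RAB15 had the opposite one.

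**Figure D3:**
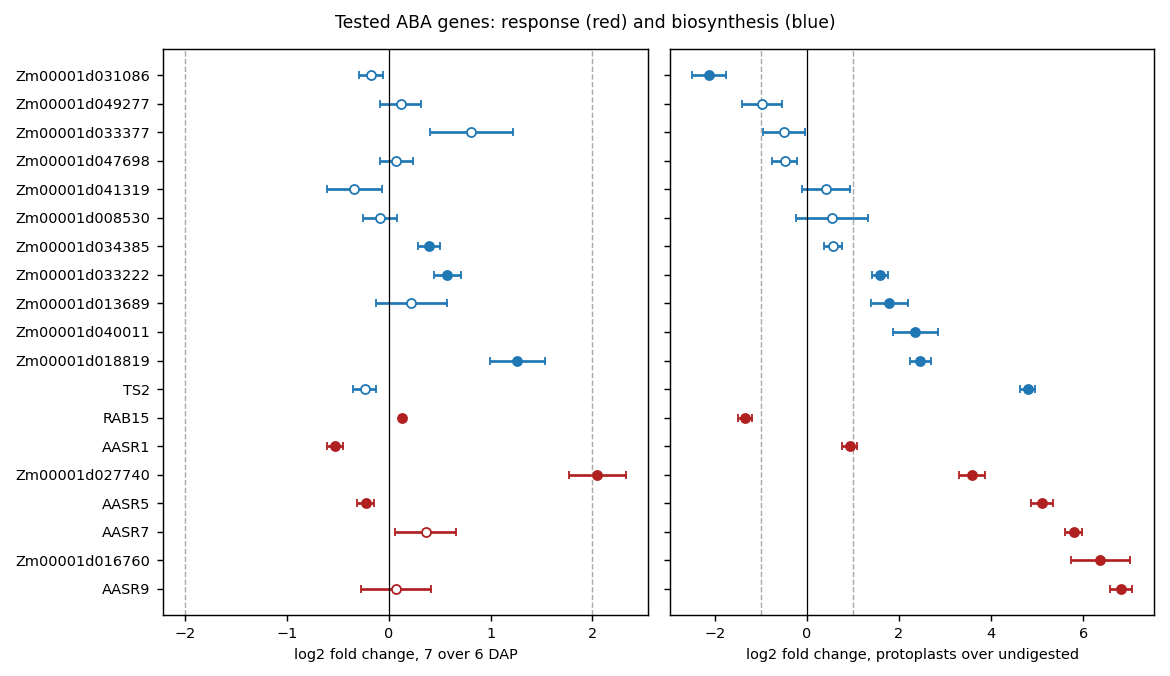
Log2 fold changes of the 19 tested ABA genes between 6 and 7 DAP (left) and between protoplasts and undigested endosperm (right). Bars give the standard error, filled points have an adjusted p under 0.05, and dashed lines mark the fold limits of 2 and 1. Response genes (red) lie mostly to the right of the limit in protoplasts, up to 6.82 for AASR9, whereas Zm00001d027740 alone passes the limit between the stages. The 2 genes that passed the filter only through their protoplast counts, Zm00001d016760 and Zm00001d040011, have no point on the left. Their points on the right are filled by the same rule, but the filling is not to be read as a test result for them.

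Markers of other kinds differed in these preparations as well. The summed level of 2 heat shock genes (HSP26 and HSP9) was 10.5 and 47.2 CPM in undigested endosperm and 67.2 and 114 CPM in protoplasts, and 2 of 2 were higher. The summed level of 5 starchy endosperm markers was 5060 and 7015 CPM in undigested endosperm and 1957 and 1720 CPM in protoplasts, with 4 of 5 lower, and 4 of 4 markers of the embryo surrounding region were lower. Of 3 aleurone markers 1 was lower, and of 4 embryo markers 0 passed the test in either direction. Of 4 transfer layer markers 1 was lower, and of 3 markers of endosperm adjacent to the scutellum 2 were lower. The summed transfer layer level was 624 CPM undigested and 192 CPM in protoplasts at 6 DAP, but 214 and 281 CPM at 7 DAP. The summed embryo level was 53.9 and 83.5 CPM at 6 DAP, but 441 and 225 CPM at 7 DAP. Both sums thus moved in opposite directions at 6 and 7 DAP, which the fit takes as replicates. Over all tested genes, 23.0% were higher and 16.3% lower. Their part in the ABA results was not tested.

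A further 18 ABA-related genes outside these categories were followed, chosen by an annotation or name for ABA signalling, dehydrins or LEA proteins. They were chosen with earlier results of these data known, and all 18 passed both filters. Their shares are therefore a description and no independent test. Between the stages 12 were higher and 1 lower at an adjusted p under 0.05 (66.7% and 5.56%), against 28.2% and 28.0% of all genes, and their median log2 fold change was 0.43. At the fold limit 0 were called in either direction, against 2.54% and 0.451% of all genes. In protoplasts 13 were called higher and 0 lower (72.2% of the 18 higher), against 18.4% and 7.37% of all genes, and their median was 1.91 against -0.03 for all genes.

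The signalling genes are taken in the order of the pathway. The receptor gene PYL8 had a mean of 33.9 ± 2.21 CPM (SD, n = 3) at 6 DAP and 35.9 ± 1.12 CPM at 7 DAP, and the values overlapped (adjusted p = 0.312). In protoplasts it was called higher, from 29.8 to 54.3 CPM at 6 DAP and from 28.7 to 71.4 CPM at 7 DAP (log2 fold change 1.09 ± 0.17, adjusted p = 0.00906). The type 2C phosphatase gene PRH25 had 119 and 113 CPM in undigested endosperm and 366 and 601 CPM in protoplasts (2.01 ± 0.23, adjusted p = 0.00373).

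The kinase gene SNRKII7 was an exception to that direction. It rose between the stages, from 108, 108 and 106 CPM to 141, 141 and 143 CPM (log2 fold change 0.40 ± 0.03, adjusted p = 1.09e-09), and had 122 and 158 CPM in undigested endosperm and 129 and 149 CPM in protoplasts (adjusted p = 0.993). BZIP75, annotated as a factor that binds ABA response elements, rose from 35.5 ± 3.76 to 54.4 ± 1.26 CPM between the stages (0.61 ± 0.06, adjusted p = 4.30e-08). In protoplasts it had 95.8 and 151 CPM against 32.6 and 43.1 CPM (1.68 ± 0.14, adjusted p = 0.00163).

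VP1 (Viviparous1), the maize factor through which ABA acts on seed maturation and dormancy, rose from 22.7 ± 1.32 to 37.7 ± 1.62 CPM between the stages (0.74 ± 0.06, adjusted p = 4.38e-09). Its protoplast values were 42.7 and 96.4 CPM against 26.4 and 43.3 CPM in undigested endosperm (0.93 ± 0.17, adjusted p = 0.014), under the fold limit, and the adjusted p was 0.125 without the stage covariate.

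All 6 dehydrin genes were called higher in protoplasts, as were 18.4% of all genes. DHN1 had 0.795 CPM in undigested endosperm and 74.1 CPM in protoplasts at 6 DAP, and 3.43 and 102 CPM at 7 DAP (log2 fold change 5.55 ± 0.42, adjusted p = 0.00123). DHN13 went from 0.67 to 35.6 CPM and from 1.90 to 36.6 CPM (4.88 ± 0.39, adjusted p = 0.00137). The other 4 had log2 fold changes from 1.80 (DHN6) to 3.93 (DHN15).

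Between the stages, 5 of the 6 dehydrin genes were higher at 7 DAP at an adjusted p under 0.05, as were 28.2% of all genes. DHN1 had 1.24, 1.02 and 1.07 CPM at 6 DAP and 4.16, 4.19 and 4.94 CPM at 7 DAP, with no overlap. At 1.98 ± 0.21 (adjusted p = 9.25e-08) it lay just under the fold limit, which it passed with scaling by library totals (2.09) and without 6 DAP replicate 1, 7 DAP replicate 1 or 7 DAP replicate 2. DHN15, the exception, had 12.8 ± 1.02 and 13.7 ± 0.225 CPM (adjusted p = 0.319). Of the 3 LEA genes, AY106518 rose from 39.0 ± 5.97 to 82.3 ± 2.27 CPM (1.07 ± 0.07, adjusted p = 3.07e-11), and magi2594 fell by 0.19 on the log2 scale (adjusted p = 5.82e-06). The third, magi7438, overlapped between the stages (0.11, adjusted p = 0.0352) and did not pass with DESeq2 or without 6 DAP replicate 1, 7 DAP replicate 1 or 7 DAP replicate 2, with adjusted p between 0.0825 and 0.225.

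Genes annotated as ABA-responsive gave further examples. Zm00001d023664 had 30.0 and 27.2 CPM in undigested endosperm and 707 and 1004 CPM in protoplasts, a log2 fold change of 4.88 ± 0.23 (adjusted p = 0.000526). Zm00001d009087 had 5.40 and 8.51 CPM against 58.5 and 138 CPM (3.74 ± 0.21, adjusted p = 0.000663). Zm00001d037343, annotated as an ABA-induced protein, was lower in protoplasts, with 46.3 and 37.6 CPM against 65.2 and 66.5 CPM (-0.66 ± 0.15, adjusted p = 0.0267), and was not called. Like RAB15, it is annotated for a response to ABA and stood lower after digestion.

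**Figure D4:**
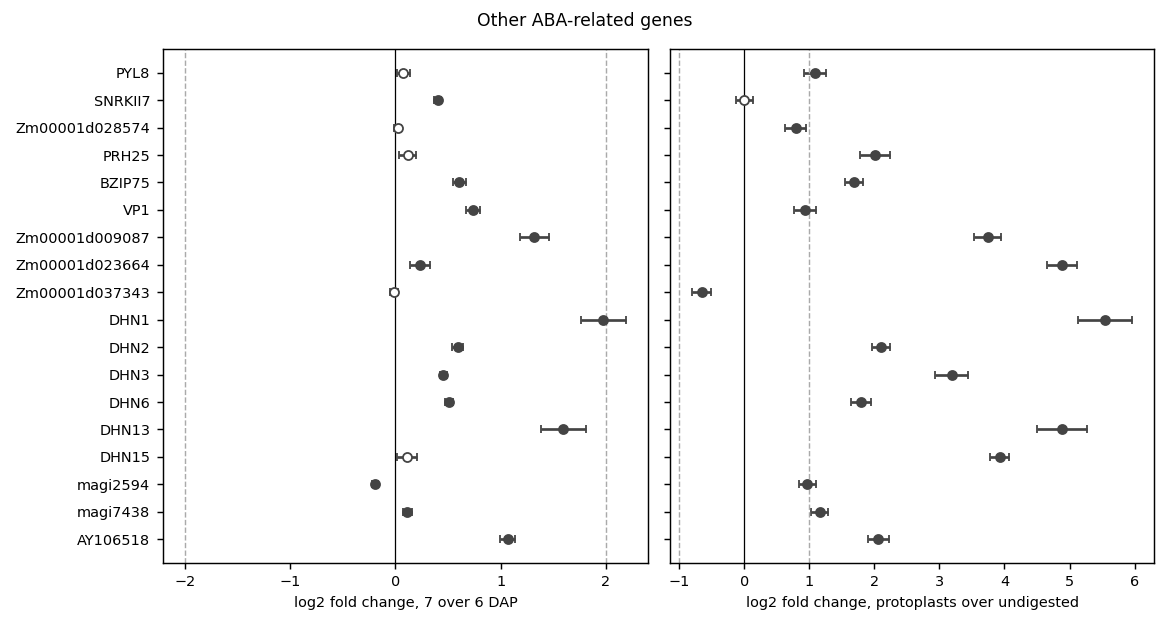
Log2 fold changes of 18 other ABA-related genes between 6 and 7 DAP (left) and between protoplasts and undigested endosperm (right), with standard errors. Filled points have an adjusted p under 0.05 and dashed lines mark the fold limits of 2 and 1. In protoplasts 13 genes lie past the limit, DHN1 farthest at 5.55, and between the stages DHN1 lies closest to the limit at 1.98.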

How the data were processed

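Bulk RNA-seq of B73 endosperm was analysed in 10 libraries. The authors trimmed reads with Trimmomatic 0.39, aligned them to the B73 v4 genome with STAR, counted uniquely mapped reads with featureCounts 2.0.1 and deposited raw counts per gene, without normalization. Reads shared by near-identical genes are therefore missing.

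These counts were tested in edgeR 4.0.16 (R 4.3.3) with TMM, filterByExpr, the quasi-likelihood test and Benjamini-Hochberg adjustment over all tested genes. Stages were compared in the 6 replicated libraries, and protoplasts with undigested endosperm in the other 4, with stage as a covariate. Single libraries were compared as log2(CPM + 1). Each fit was tested on simulated data. DESeq2 1.42.0, other scalings, filters and limits, and leaving out each replicate were alternatives. Per the study's methods, the 3 replicates came from kernels of independent ears. The p-values between stages rest on the spread between these libraries, which was small. The common coefficient of variation beyond counting error was 4.14%, so that small differences could pass the test.

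All response genes were named, and biosynthesis genes that were called or had a mean CPM of at least 10. Zm00001d034385, Zm00001d008530 and Zm00001d007876 met neither condition and were named for their values. Members and lists were chosen with earlier results of these data known. Sequences, coordinates and lengths were not used here, because no annotation of the same build was at hand.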

Additional observations from a re-analysis of the deposited data

Results flagged for a closer look

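Zm00001d008530, a biosynthesis gene of 5.85 ± 0.78 CPM at 6 DAP and 5.60 ± 1.31 CPM at 7 DAP in whole endosperm (SD, n = 3), had opposite directions in the 2 stages of the protoplast experiment. Protoplasts held 0.502 times the undigested level at 6 DAP (95% counting interval 0.364 to 0.687) and 4.06 times at 7 DAP (3.12 to 5.34). Read the other way, the ratio of 7 to 6 DAP was 0.572 in undigested endosperm (0.419 to 0.776) and 4.63 in protoplasts (3.52 to 6.16). The high value rests on 1 library, 7 DAP protoplasts with 328 counts.

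AASR5 had a ratio of 7 to 6 DAP of 0.739 in undigested endosperm and 1.20 in protoplasts. For RAB15 the ratio was 1.06 in undigested endosperm and 0.813 in protoplasts. These directions were opposite beyond counting error, but each rests on single libraries, and the differences were not tested.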

How the results depend on the processing

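Stage calls were few and moved with the settings. The 1 member called higher at 7 DAP became 3 with no filter, 0 when at least 10 counts were required in every library, where Zm00001d027740 was no longer tested, and 2 with a fold limit of 1. It was 0 to 1 with a replicate left out. The 2 members past the adjusted p that were lower at 7 DAP became 1 with library totals and 1 with DESeq2, and 1 to 3 with a replicate left out. Of the other ABA-related genes, 0 called became 1 with library totals, 4 with a fold limit of 1, and 0 to 1 with a replicate left out. Shares of all tested genes are not given in this section. Its counts show only how the calls moved, not how the lists compare with all genes. Zm00001d037343 turned from -0.01 to 0.10 between the stages with library totals (adjusted p = 0.0258), a scaling that moved the median of all genes from 0.02 to 0.13 there, and from -0.03 to -0.20 in protoplasts.

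The stage median of biosynthesis members was 0.31 with no filter and 0.0013 to 0.21 with a replicate left out. That of response members was 0.22 with library totals, 0.36 with no filter and -0.034 to 0.17 with a replicate left out, the lowest without 7 DAP replicate 2. Members called higher in protoplasts numbered 8 to 10 under the alternatives, and the 2 lower became 1 at a fold limit of 2. The protoplast median of response members was 2.93 with no filter and 4.40 under the minimum of 10 counts. With a pseudocount of 0.1, members over 1 higher at 7 DAP numbered 2 in undigested endosperm and 4 in protoplasts. The causes were not tested beyond what each setting does by construction.

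The replicate numbers did not pair the samples. Deviations of same-numbered libraries had correlations of 0.104, 0.0224 and -0.00446 across genes, and with the replicate block the members past the adjusted p numbered 5 higher and 2 lower, with 1 called. No library of the protoplast set could be left out, since no residual degrees of freedom would remain. At these depths, changes could not be tested in 19 members, 8 of them without a count in any library.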
